A study of Mus musculus with 44 samples.

Results

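Genes for 9 integrin chains and 1 of their ligands are described here. They were taken by symbol from the deposited table of CPM (read counts scaled to a common library size): *Itgax*, *Itgam*, *Itgal*, *Itgb2*, *Itgae*, *Itgb7*, *Itga4*, *Itgav*, *Itgb8* and *Icam1*. These are 10 of the 14699 genes of the table, and all 10 were among the 11963 genes kept for testing because 5 or more of the 44 libraries reached 1 CPM. The RNA came from dendritic cells (DCs), gated as CD45+CD11c+ with high MHC class II, of the inguinal lymph nodes that drain the flank. Female mice of 8 to 12 weeks had been injected under the skin 24 h earlier, and the samples are named by zeitgeber time (ZT, hours after lights on): ZT3 and ZT9 lie in the light phase, ZT15 and ZT21 in the dark phase. WT libraries came from control mice given B16-F10-OVA melanoma cells, which carry the model antigen ovalbumin (5 mice per timepoint, n = 20). Libraries labelled KO came from Clec9a-cre:Bmal1 flox mice given the same cells (3 per timepoint, n = 12). There the recombinase is driven by *Clec9a*, a gene of conventional DCs and their precursors, so other cells of the node keep the clock gene *Bmal1* (*Arntl*). PBS libraries came from WT mice that received the buffer without tumour cells (3 per timepoint, n = 12). KO and WT libraries share the tumour cells. The paper calls the mice of both the WT and the PBS libraries WT, while the PBS sample titles name no genotype.

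Integrins are receptors on the cell surface that bind other cells and extracellular matrix, and each is a pair of 1 α and 1 β chain. The β2 chain (CD18, *Itgb2*) is found on leukocytes and pairs with αX (CD11c, *Itgax*), αM (CD11b, *Itgam*) or αL (CD11a, *Itgal*). The pair with αL, LFA-1, holds T cells to antigen-presenting cells by binding ICAM-1 (*Icam1*). The β7 chain pairs with αE (CD103, *Itgae*), which binds E-cadherin, or with α4 (*Itga4*), which binds MAdCAM-1 and, paired with β1, VCAM-1. The pair of αv (*Itgav*) and β8 (*Itgb8*) releases active TGF-β from its latent complex. CD103 and CD11b divide migratory DCs into the type 1 and type 2 lineages, and CD11c was itself a sorting marker here, so the presence of *Itgax* says nothing beyond the sort.

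*Arntl* was measured first, as a check of the KO label. Its level was 14.8 ± 3.65 CPM in WT (SD, n = 20), 19.9 ± 6.91 CPM in libraries labelled KO (n = 12) and 21.7 ± 6.11 CPM in PBS (n = 12). It was thus not lower under the KO label (log2 difference to WT 0.38, SE 0.12, adjusted p = 0.0153 in limma). A count over the whole gene does not resolve the floxed exon, and these libraries are called by their label throughout. All 8 genes of the DC list (*Flt3*, *Zbtb46*, MHC class II genes and others) were detected in every library. Reads on genes, recovered from the CPM step of 1 read, numbered 20088012 to 28962671 per library in WT, 29406729 to 55799162 in KO and 28003328 to 49590054 in PBS. The depth of WT and its group therefore cannot be told apart. The lowest value of any member was 25 reads. KO ZT15 replicate 2 stood apart for the members, since its *Itgam* level was 105 CPM against 20.5 and 26.8 CPM in the other 2 libraries of that condition. Its melanoma markers summed to 22.1 CPM, against at most 5.59 CPM in any other library, and its macrophage and monocyte markers to 3314 CPM. The KO minus WT and KO minus PBS differences that gained or lost a call without this library, or changed by over 1.5 times, are given both ways.

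Levels between genes were compared per length of exon, which removes the longer target that a long transcript offers to sequencing. In WT, *Icam1* led with 317 ± 34.5 CPM per kb (SD, n = 20) and was above *Itgb2* in 20 of 20 libraries. The β chains of leukocyte integrins followed, with *Itgb2* at 24.2 ± 5.13 and *Itgb7* at 20.8 ± 5.89 CPM per kb. *Itgb2* was the higher of these in 16 of 20 WT libraries but in only 6 of 12 KO libraries and 8 of 12 PBS libraries, so that their order did not exceed the spread. *Itga4* (9.93 ± 2.03 CPM per kb) and *Itgax* (8.94 ± 2.64) were likewise not separated, with *Itga4* above in 14 of 20 libraries. *Itgal* came next at 3.88 ± 1.42 CPM per kb. *Itgae*, *Itgav*, *Itgb8* and *Itgam* formed the low end, between 0.802 and 1.75 CPM per kb on average in WT. *Itgam* was last in WT, where *Itgb8* was above it in only 13 of 20 libraries. It was eighth in both other groups, above *Itgav* in 11 of 12 KO and 9 of 12 PBS libraries. With the longest annotated transcript as the length it was above *Itgav* in 9 of 12 KO and 6 of 12 PBS libraries. These orders were thus not clearly separated either.

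**Figure D1:**
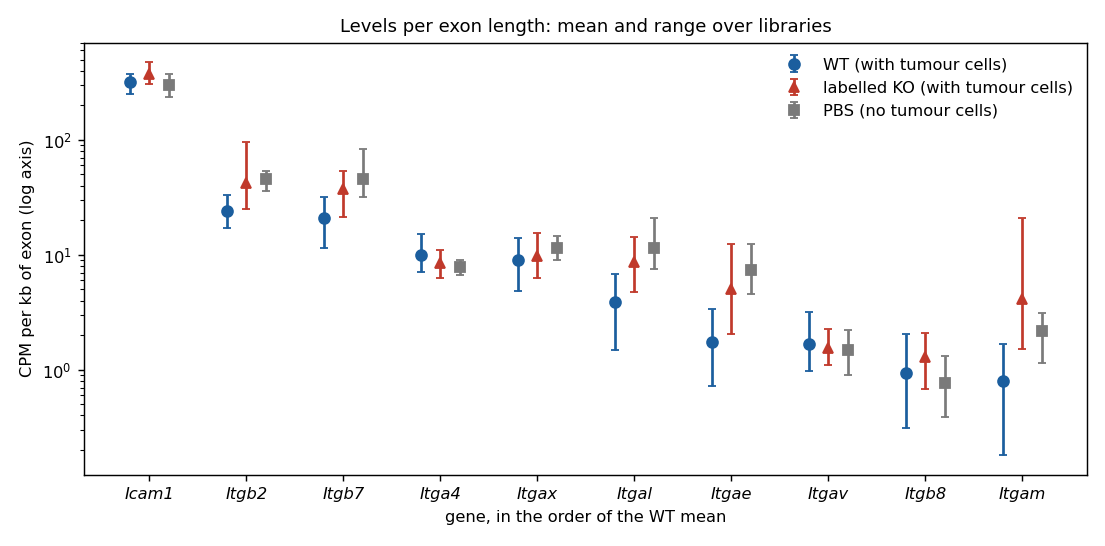
Level of each gene per kb of exon (log axis) in WT, libraries labelled KO and PBS, where points are means and bars run from the lowest to the highest library (n = 20, 12 and 12). *Icam1* lies above all integrin chains, and the WT points of *Itgal*, *Itgae* and *Itgam* lie below those of the other groups.

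The chains of a pair were not at equal levels. *Itgb2* per kb exceeded the sum of its partners *Itgax*, *Itgal* and *Itgam* in all 20 WT, 12 KO and 12 PBS libraries, with a median ratio of 1.80, 1.90 and 1.82 respectively. *Itgb7* exceeded the sum of *Itga4* and *Itgae* in 18 of 20 WT libraries (median ratio 1.88), in 12 of 12 KO libraries (2.705) and in 12 of 12 PBS libraries (2.97). For the TGF-β activating pair the order was the other way. *Itgb8* exceeded *Itgav* in 1 of 20 WT, 4 of 12 KO and 0 of 12 PBS libraries, with medians of 0.517, 0.898 and 0.511. With the longest annotated transcript as the length instead of all exons, *Itgb7* exceeded its partners in 14 of 20 WT libraries. Partners outside the members were not counted, such as β1 for α4 (*Itgb1*, median 671 CPM in WT). These ratios therefore do not give the balance within a pair.

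The genes lie on 7 chromosomes. The 3 α partners of β2 sit close together on chromosome 7 in the plus strand (GRCm38.p6), with *Itgal* at chr7:127296139-127335137, *Itgam* at chr7:128062640-128118491 and *Itgax* at chr7:128129526-128150657. *Arntl*, the gene targeted in the mice labelled KO, lies on the same chromosome at chr7:113178471-113314126. Whether this linkage bears on differences of these 3 members between KO and other libraries was not tested. *Itgb2* is at chr10:77530329-77565708, *Itgae* at chr11:73090505-73147449, *Itgb7* at chr15:102215994-102233405, *Itga4* at chr2:79255426-79333114, *Itgav* at chr2:83722303-83806917, *Itgb8* at chr12:119162803-119238276 and *Icam1* at chr9:21015940-21028814. RefSeq promoter windows matched 7 of the 10 members. Those of *Itgam* and *Itgb7*, which differed most clearly between groups among the genes matched, and of *Icam1*, the most abundant member, are shown as the 250 bases before the start site, read 5′ to 3′ on the strand of the gene, with motif matches in capitals.

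Itgam, chr7:128062390-128062639, plus strand: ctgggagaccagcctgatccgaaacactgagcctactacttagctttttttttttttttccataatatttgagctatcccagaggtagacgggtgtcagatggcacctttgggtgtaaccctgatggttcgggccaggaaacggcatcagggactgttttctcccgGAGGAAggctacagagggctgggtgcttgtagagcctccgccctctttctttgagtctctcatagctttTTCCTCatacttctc

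Itgb7, chr15:102231936-102232185, minus strand: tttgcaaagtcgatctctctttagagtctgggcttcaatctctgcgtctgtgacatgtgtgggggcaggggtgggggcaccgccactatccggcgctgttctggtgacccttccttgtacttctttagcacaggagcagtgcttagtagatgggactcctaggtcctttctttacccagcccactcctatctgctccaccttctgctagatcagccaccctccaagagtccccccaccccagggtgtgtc

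Icam1, chr9:21015690-21015939, plus strand: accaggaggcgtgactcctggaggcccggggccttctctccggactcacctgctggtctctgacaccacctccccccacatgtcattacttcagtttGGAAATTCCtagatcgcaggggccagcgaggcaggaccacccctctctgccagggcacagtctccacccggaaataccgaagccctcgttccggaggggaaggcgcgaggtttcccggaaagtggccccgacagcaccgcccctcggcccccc

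The motifs below were searched on both strands of these 250 bases. The E-box CACGTG, to which CLOCK and BMAL1 bind, was in 0 of the 7 member windows and in 6.02% of all 32851 windows. GAGGAA, a core of sites for the myeloid factor PU.1, occurs 2 times before *Itgam*, with first bases 84 and 15 bases before the start, and was also found before *Itgav* (23.3% of all windows). GGAAATTCC, the letters of the NF-κB site known from the human *ICAM1* promoter, begins 153 bases before the start of *Icam1* and occurs in 0.286% of all windows. The RefSeq start used for *Itgb7* lies inside the span of the gene given above. A match of letters is not evidence of binding.

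To see how tumour cells go with the members, WT was compared with PBS over the mean of the 4 timepoints. The genes *Itgae*, *Itgal*, *Itgam*, *Itgb7*, *Itgb2* and *Itgax* were lower in mice given tumour cells and *Itga4* was higher, with *Itgae* and *Itgal* furthest apart, while *Icam1*, *Itgav* and *Itgb8* did not pass the test. In limma on log2(CPM + 0.5), 6 of 10 members were lower and 1 was higher at an adjusted p under 0.05. Of all genes tested, 37.9% were called by the same rule, 24.6% lower and 13.3% higher. Fewer cells of a type and less RNA per cell cannot be told apart in such bulk samples.

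*Itgae* showed the widest gap. Its level was 3.29 CPM in the lowest, 7.45 CPM in the median and 15.5 CPM in the highest WT library, whereas PBS libraries ran from 20.7 over 30.6 to 57.3 CPM. All WT libraries thus lay below all PBS libraries, at every timepoint. The mean was 0.236 times that of PBS (log2 difference -2.04, SE 0.19, adjusted p = 1.61e-09, limma). *Itgal* behaved alike, with 9.84, 22.3 and 44.5 CPM (lowest, median and highest) in WT and 49.9, 65.7 and 136 CPM in PBS, again without overlap (log2 difference -1.59, SE 0.15, adjusted p = 3.16e-09). For *Itgb2*, the shared chain, WT libraries held 52.7, 69.8 and 102 CPM and PBS libraries 109, 141 and 165 CPM. These groups did not overlap either (log2 difference -0.92, SE 0.08, adjusted p = 5.01e-10). Complete separation of this kind in the direction of lower WT levels was found for 1.73% of the genes tested.

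*Itgb7* ranged over 31.9, 56.6 and 88.3 CPM in WT and over 87.4, 105 and 233 CPM in PBS. The highest WT library therefore just passed the lowest PBS library (log2 difference -1.11, SE 0.12, adjusted p = 2.09e-08, limma). *Itgam* was low throughout, with 0.907, 3.04 and 8.40 CPM in WT and 5.73, 11.3 and 15.7 CPM in PBS. Its groups overlapped as well (log2 difference -1.48, SE 0.25, adjusted p = 3.41e-05, limma). *Itgax* differed least of the members called lower (log2 difference -0.39, SE 0.13, adjusted p = 0.0182), and it was lost with array weights or a replicate block. *Itga4* was the only member called higher, at 139 ± 28.4 CPM in WT against 110 ± 14.4 CPM in PBS (log2 difference 0.32, SE 0.07, adjusted p = 0.00136).

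The other members stayed near their PBS level. *Icam1* was 1382 ± 151 CPM in WT and 1309 ± 177 CPM in PBS (log2 difference 0.08, SE 0.07, adjusted p = 0.394). *Itgav* differed by 0.14 (SE 0.18, adjusted p = 0.567) and *Itgb8* by 0.25 (SE 0.18, adjusted p = 0.306) on the log2 scale. Across fits that left out 1 library, *Icam1* ran from 0.047 to 0.11, *Itgav* from 0.049 to 0.20 and *Itgb8* from 0.13 to 0.33, uncalled in each.

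Libraries labelled KO were next compared with WT, both with tumour cells. *Itgam*, *Itgae*, *Itgal*, *Itgb7* and *Itgb2* were higher under the KO label, *Itgam* with the largest difference, *Icam1* was slightly higher and *Itga4* was lower. This comparison and that of WT with PBS share the 20 WT libraries, so the sign of one bears on the other and no overlap between them is given. At an adjusted p under 0.05 in limma, 6 of 10 members were higher and 1 was lower, while 33.7% of all genes tested were called, 23.5% higher and 10.2% lower. Scaled by the median of ratios instead of the library total, the share of higher among all called genes was 49.9% instead of 69.8%, and 46.1% instead of 35.1% for WT against PBS.

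*Itgam* was 7.63 CPM in the lowest, 11.8 CPM in the median and 105 CPM in the highest KO library, so that the lowest KO libraries fell within the range of WT, which ended at 8.40 CPM (log2 difference 1.90, SE 0.27, adjusted p = 4.56e-06). Without KO ZT15 replicate 2 the difference was 1.72 (adjusted p = 9.94e-06). *Itgae* ran over 9.31, 20.3 and 56.5 CPM, a range that overlaps WT below and PBS above (log2 difference 1.36, SE 0.23, adjusted p = 4.63e-05). *Itgal* held 31.3, 53.0 and 94.0 CPM, a range that also overlaps WT (log2 difference 1.14, SE 0.15, adjusted p = 1.57e-06, limma). *Itgb2* ran over 76.3, 118 and 293 CPM and overlapped WT too (log2 difference 0.75, SE 0.10, adjusted p = 1.89e-06, and 0.65 without the library named above). All KO libraries lay above all WT libraries for 0.435% of the genes tested, and for no member. *Itgb7* was 59.6, 102 and 148 CPM (log2 difference 0.85, SE 0.10, adjusted p = 3.58e-07).

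The remaining members differed less between KO and WT. *Icam1* was 1621 ± 219 CPM (n = 12) under the KO label, a log2 difference of 0.23 (SE 0.07, adjusted p = 0.0150) that was 0.13 and no longer called with median-of-ratios scaling. *Itga4* was lower, at 118 ± 16.2 CPM (log2 difference -0.22, SE 0.08, adjusted p = 0.0296), and this call was lost in 4 of 32 fits that left out 1 library, each from KO (adjusted p = 0.0518 without KO ZT15 replicate 2), and with a replicate block (-0.19, adjusted p = 0.0879). *Itgb8* reached 14.2 ± 4.97 CPM against 10.4 ± 4.41 CPM in WT and missed the threshold (log2 difference 0.46, SE 0.19, adjusted p = 0.0648), which it passed in 6 of 32 fits without 1 library, KO ZT15 replicate 2 among them (0.52, adjusted p = 0.0483), and with array weights (0.60, adjusted p = 0.00866). *Itgax* (0.14, SE 0.14, adjusted p = 0.459) and *Itgav* (-0.05, SE 0.16, adjusted p = 0.846) were not called. Across fits that left out 1 library, *Itgax* ran from 0.078 to 0.20, uncalled in each.

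Between KO and PBS, which differ in both label and tumour cells, fewer members were apart. *Itgb8*, the β chain of the TGF-β activating pair, was higher under the KO label (log2 difference 0.71, SE 0.21, adjusted p = 0.0437), and so was *Icam1* (0.31, SE 0.09, adjusted p = 0.0426). These are 2 of 10 members, against 9.73% of all genes called, 5.43% higher and 4.30% lower. Both calls were lost with median-of-ratios scaling, where the share of higher among all called genes was 39.3% instead of 55.8%. A replicate block lost both as well (adjusted p = 0.0521 for *Itgb8* and 0.0564 for *Icam1* in limma). Without the filter on low values *Itgb8* was lost (adjusted p = 0.0529 in limma). Of 24 fits that left out 1 library, *Itgb8* was lost in 16 and *Icam1* in 17, among them the fit without KO ZT21 replicate 1, where 20.4% of the tested genes lay more than 1 log2 unit from the mean of the other libraries of its condition. *Itgae* (-0.69, SE 0.25, adjusted p = 0.0902) and *Itgal* (-0.45, SE 0.17, adjusted p = 0.0913) were the nearest of the rest, and both were called with array weights (-0.71, adjusted p = 0.0282 and -0.52, adjusted p = 0.0195). Values of *Itgam* (0.43), *Itgb2* (-0.17) and *Itgb7* (-0.27) were not called. Across fits that left out 1 library they ran from 0.25 to 0.54, -0.27 to -0.10 and -0.32 to -0.17 in this order, uncalled in each. Without KO ZT15 replicate 2 the differences of *Itgam* and *Itgb2* were 0.25 (adjusted p = 0.355) and -0.27 (adjusted p = 0.0791), still uncalled in limma.

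**Figure D2:**
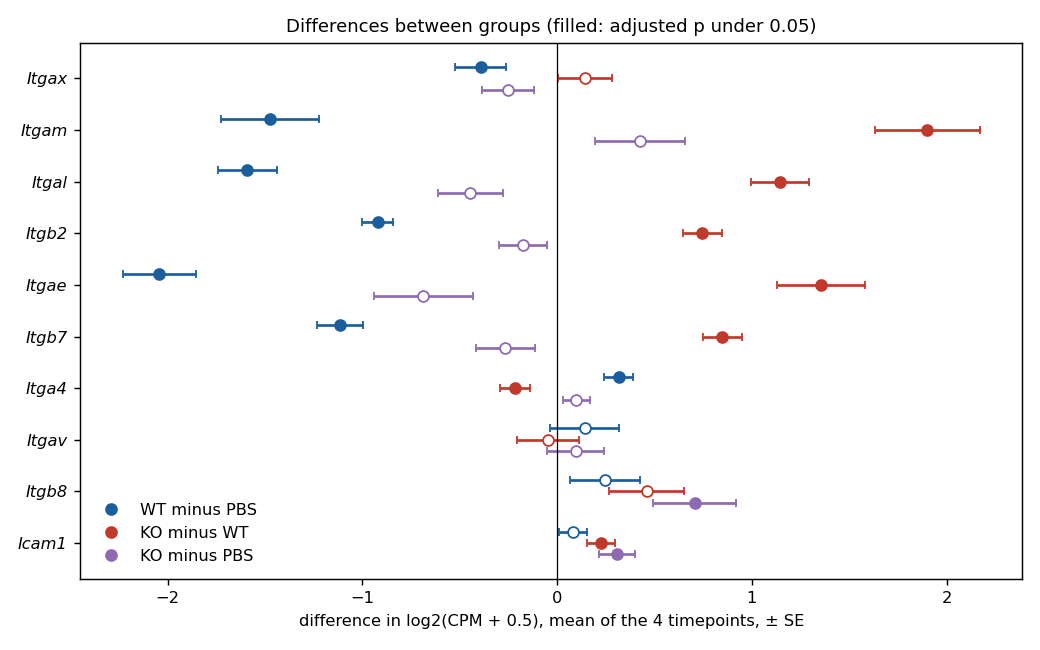
Log2 difference of each member in WT minus PBS, KO minus WT and KO minus PBS, as the mean of the 4 timepoints ± SE, with filled circles for an adjusted p under 0.05. *Itgam*, *Itgal*, *Itgb2*, *Itgae* and *Itgb7* lie left of 0 for WT minus PBS and right of 0 for KO minus WT, whereas *Icam1* and *Itgav* stay within 0.31 of 0.

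Levels of marker lists for other cells also differed between these groups. Their counts are to be read against the shares of all genes called, 24.6% lower and 13.3% higher in WT than PBS and 23.5% higher and 10.2% lower in KO than WT. The 12 macrophage and monocyte markers of the table (13 on the list) summed to 411 to 1099 CPM in WT, 872 to 3314 CPM in KO and 1771 to 3262 CPM in PBS. Of these 12, 11 were called lower in WT than PBS and 11 higher in KO than WT, and *Mertk* was at 0 in 13 of 44 libraries. *Lyz2*, named after its level was seen, had medians of 564, 1309 and 2063 CPM in WT, KO and PBS. The medians of the sum were 689, 1632 and 2444 CPM. T cell markers summed to 765 to 1379, 958 to 1982 and 1112 to 2313 CPM, with 17 of 24 lower and 3 higher in WT than PBS and 7 higher and 2 lower in KO than WT, the latter near the shares of all genes. NK cell markers summed to 56.7 to 104, 75.9 to 186 and 130 to 511 CPM, with 7 of 8 lower in WT than PBS and 5 of 8 higher in KO than WT. B cell markers summed to 47.1 to 82.5, 60.9 to 186 and 85.1 to 140 CPM. Granulocyte markers summed to 0.473 to 25.4, 2.36 to 41.3 and 7.32 to 31.2 CPM, with medians of 3.34, 6.94 and 11.1 CPM. Of lists for conventional DCs, 9 of 11 type 1 and 7 of 10 type 2 markers were lower in WT than PBS, and 1 of each was higher (*Batf3* by 0.30 and *Zeb2* by 0.33 on the log2 scale, named after their values were seen). On the migratory DC list, 6 of 14 markers were higher and 2 lower in WT than PBS. In KO against WT, 5 of 6 Langerhans cell markers and 5 of 10 type 2 DC markers were higher. Not all type 2 markers went this way, since *Zeb2* had medians of 51.3 CPM in WT and 36.6 CPM in KO. Type 1 DC markers summed to 823 to 1089 CPM in WT and 797 to 1191 CPM in KO. Migratory DC markers summed to 44036 to 53858 CPM in WT and 42015 to 54679 CPM in KO. The part of any of these cells in the members' differences was not tested.

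**Figure D3:**
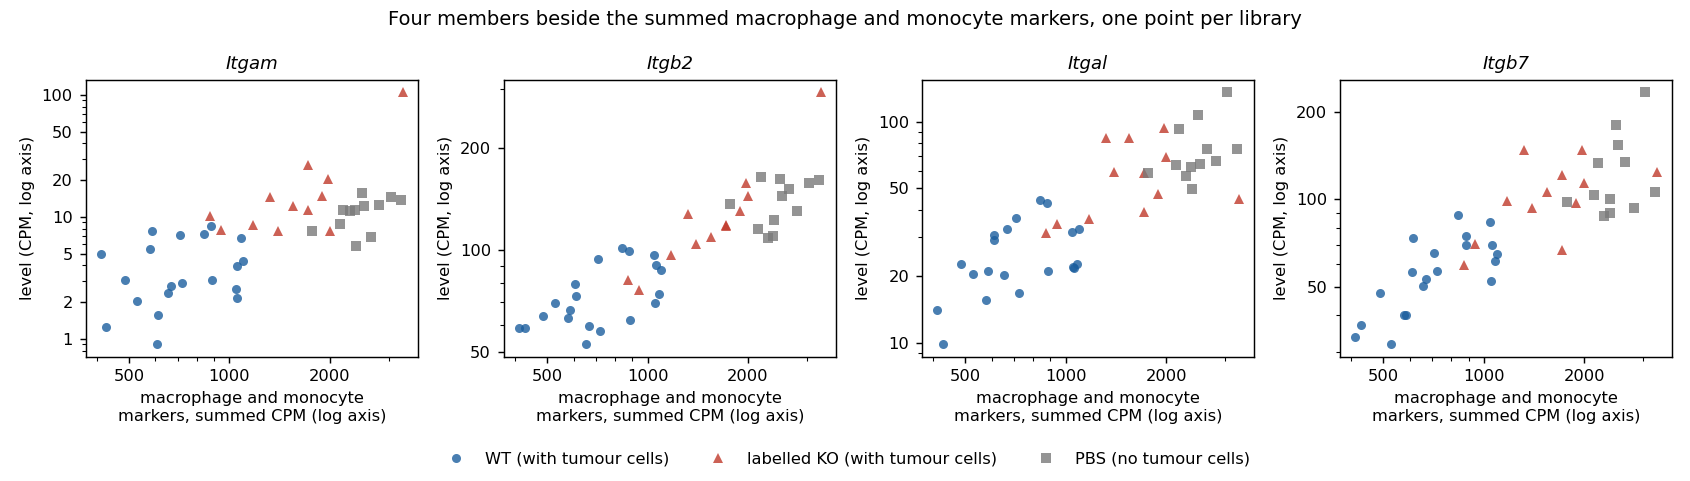
Level of 4 members (log axis) against the summed CPM of 12 macrophage and monocyte markers (log axis), with 1 point per library: circles for WT, triangles for libraries labelled KO and squares for PBS. WT libraries take up the low end of both axes, and KO ZT15 replicate 2 is the point at 105 CPM of *Itgam*.

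Over the day, 2 members changed in WT. *Itgb7* and *Itgb2* had higher means at ZT3 and ZT15 than at ZT9 and ZT21, a pattern with 2 maxima. The paper describes light cabinets in opposite phases, so that mice at different times could be injected together. Whether ZT3 shared a handling session with ZT15, and ZT9 with ZT21, is not given for these libraries. Time of day and session therefore cannot be told apart for this pattern. The F test among the 4 timepoints in limma called these 2 of 10 members in WT, where 5.28% of all genes were called, and 4 had an unadjusted p under 0.05, as 23.1% of all genes had. *Itgb7* was at 66.4 ± 6.76 CPM at ZT3, 38.1 ± 6.28 at ZT9, 71.0 ± 15.01 at ZT15 and 54.8 ± 12.1 at ZT21 (SD, n = 5 each, adjusted p = 0.0121). All 5 ZT9 libraries (31.9 to 47.9 CPM) lay below all ZT3 libraries (56.5 to 74.7 CPM) and all ZT15 libraries (52.4 to 88.3 CPM). *Itgb2* was at 82.6 ± 12.7, 62.8 ± 4.62, 88.3 ± 15.2 and 61.9 ± 7.91 CPM (adjusted p = 0.0430 in limma), with 1 library of ZT3 and 1 of ZT15 inside the range of ZT9. This call was lost when any one of 15 of the 20 libraries was left out, and with a replicate block (adjusted p = 0.0951).

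*Itgal* followed the same course without passing the F test (28.3 ± 6.80, 16.6 ± 5.11, 32.7 ± 10.7 and 24.3 ± 6.98 CPM, adjusted p = 0.0867 in limma), but passed it with median-of-ratios scaling (adjusted p = 0.0296) and with array weights (adjusted p = 0.0269). *Itga4*, a partner of β7, had its highest mean of 170 ± 26.9 CPM at ZT9 and its lowest mean of 116 ± 14.6 CPM at ZT15 (adjusted p = 0.0949, and 0.00802 with array weights). *Itgae* stayed close together over the day, with means from 7.64 to 8.43 CPM (adjusted p = 0.977). *Icam1* had means between 1332 and 1441 CPM (adjusted p = 0.830).

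The alternation was then written as 1 contrast, ZT3 and ZT15 minus ZT9 and ZT21. Since it was chosen from the WT values, its size in WT is a description with no test. There it was 0.59 (SE 0.12) for *Itgb7*, 0.59 (SE 0.18) for *Itgal*, 0.44 (SE 0.09) for *Itgb2*, -0.26 for *Itga4* and -0.07 for *Itgae* on the log2 scale. Over all genes tested its median in WT was -0.07, and 0.02 with median-of-ratios scaling. As background, 279 genes were higher and 858 lower in WT at an adjusted p under 0.05 in limma. With median-of-ratios scaling these were 517 and 494. The alternation was thus not particular to the members, and the share of higher genes depended on scaling. In KO the values were 0.20 for *Itgb7*, 0.25 for *Itgal* and 0.50 for *Itgb2*, and in PBS 0.40, 0.33 and 0.22, all uncalled in limma. Leaving out 1 library at a time, they ran in KO from 0.12 to 0.30 for *Itgb7*, 0.089 to 0.37 for *Itgal* and 0.31 to 0.64 for *Itgb2*. Changes of over 1.5 times came without KO ZT9 replicate 1 or KO ZT21 replicate 2 for *Itgb7*, KO ZT3 replicate 1 or KO ZT15 replicate 1 for *Itgal* and KO ZT15 replicate 2 for *Itgb2*, each time to a lower value. In PBS they ran from 0.21 to 0.55, 0.17 to 0.49 and 0.16 to 0.30, with such changes without PBS ZT15 replicate 2 for *Itgb7* and *Itgal* and without PBS ZT9 replicate 2 for *Itgal*. None was called in any of these fits. Of the 11963 genes tested, 0 were called in either group (2 in PBS without the filter on low values), and 6.97% and 5.76% had an unadjusted p under 0.05. Summed WT means of several marker lists were also lower at ZT9 and ZT21 than at ZT3 and ZT15, which was not tested. These were the DC list (19602 ± 4913, 16107 ± 1610, 22794 ± 3529 and 17599 ± 1174 CPM from ZT3 to ZT21) and type 2 DC markers (348 ± 50.3, 302 ± 35.2, 376 ± 45.0 and 309 ± 47.7 CPM). The differences between ZT3 and ZT21 were under the SD at ZT3 for both. The macrophage and monocyte markers had means of 871 ± 213, 486 ± 69.5, 979 ± 111 and 649 ± 53.4 CPM. Single genes weigh heavily in such sums. In WT, *Lyz2* alone had a median of 564 CPM against 689 CPM for the macrophage and monocyte sum. *Cd74* had 10630 CPM against 18261 CPM for the DC list. Means of the NK cell, granulocyte and melanoma lists had this order by less than their SD at ZT3 and ZT15. T cell markers did not have this course (1054.5 ± 76.4, 883 ± 83.5, 1113 ± 76.3 and 1183 ± 137 CPM).

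**Figure D4:**
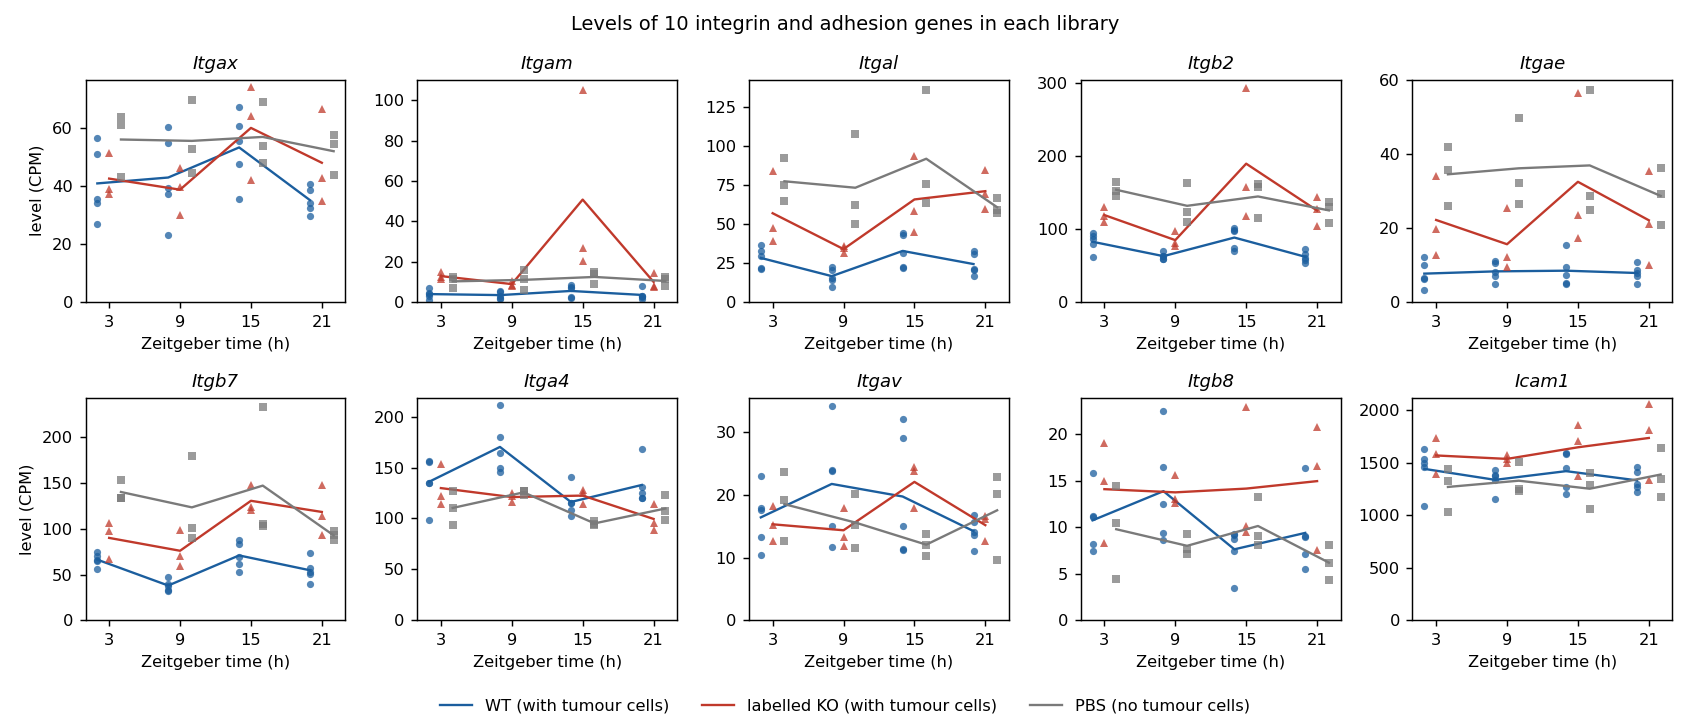
CPM of the 10 members against zeitgeber time, with 1 point per library (circles for WT, triangles for libraries labelled KO, squares for PBS, shifted sideways by 1 h for view) and lines through the means of each timepoint. The WT means of *Itgb7*, *Itgb2* and *Itgal* are lower at ZT9 and ZT21 than at ZT3 and ZT15, and *Itgam* has 1 KO library at 105 CPM at ZT15.

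A 24-h rhythm, which is what a cosinor fits, was not called for any member in any group after adjustment, and 0.0251% of genes were called in WT and none in KO or PBS. Without adjustment, 0 members had p under 0.05 in WT (9.20% of genes), 2 in KO (10.5% of genes) and 0 in PBS (7.38% of genes). The 2 were *Itgb7*, with an amplitude of 0.42 on the log2 scale and a fitted peak at 18.3 h (unadjusted p = 0.0221, adjusted p = 0.408), and *Itgal*, with 0.53 and 20.2 h (unadjusted p = 0.0226, adjusted p = 0.408). ZT9 and ZT21, the times that the study set against each other, did not differ for any member at an adjusted p under 0.05 in limma, and 0.226% of genes did in WT (0.0920% higher, 0.134% lower), 0.00836% in KO, where the 1 gene was lower, and none in PBS, where 5.32% had an unadjusted p under 0.05. In WT the members with an unadjusted p under 0.05, as 11.5% of genes had, were *Itgal* (-0.55), *Itgb7* (-0.51) and *Itga4* (0.35), the last of which was called with array weights (0.45, adjusted p = 0.0299). In KO (10.9% of genes) these were *Itgal* with -1.04 and *Itgb7* with -0.64 (adjusted p = 0.332 and 0.416).

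In KO and PBS the F test called 0 of the 11963 genes tested (2 in PBS without the filter on low values), with 10.3% and 7.44% of genes under an unadjusted p of 0.05. Of the members, 4 of 10 were under it in KO (*Itgam*, *Itgb2*, *Itgb7* and *Itgal*) and 0 of 10 in PBS. In KO, *Itgam* came nearest of the members (adjusted p = 0.331 in limma). Its 3 libraries at ZT15 held 20.5, 26.8 and 105 CPM, against means of 8.83 to 12.8 CPM at the other times. Without the library at 105 CPM the ZT15 mean was 23.6 CPM and the adjusted p was 0.421. Whether the course over the day differed between groups was tested as an interaction. No member was called in KO against WT (0.0502% of genes called and 18.3% with an unadjusted p under 0.05, lowest member *Itga4*, unadjusted p = 0.0413 in limma, adjusted p = 0.256) or in WT against PBS, where 0 of the genes tested were called (5 without the filter) and 11.9% had an unadjusted p under 0.05. The alternation in WT is therefore not shown to be absent from the other groups.

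*Itgae* and *Itgam* encode CD103 and CD11b, surface proteins by which the study split these DCs, so their ratio was followed over the day. Both RNAs also varied with markers of other cells in some groups, as given below. The ratio therefore does not measure the DC subsets alone. The ratio was taken on CPM. Taken per length it would differ by a constant, with the same course over the day. Its log2 value was 1.02 ± 1.01 in WT, 0.47 ± 1.28 in KO and 1.59 ± 0.50 in PBS (SD). Without KO ZT15 replicate 2, where it was -2.56, the KO value was 0.75 ± 0.90 (SD, n = 11). Its means in WT were 0.97, 1.26, 0.64 and 1.203 at ZT3, ZT9, ZT15 and ZT21. Permutation of timepoint labels gave p = 0.781 in WT, and the exact permutation test gave p = 0.643 in KO and 0.848 in PBS (each adjusted to 0.848 over the 3 groups). In WT, the means of the timepoints lay closer together than the spread (SD) between libraries of 1 timepoint, which was 0.70 to 1.24.

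Each member was also set beside the mean log2 level of lists of cell markers, over the libraries of 1 group. Of 50 relations in WT with T cell, DC and Langerhans cell lists, 1 passed: *Itga4* was lower where T cell markers were higher (Pearson r = -0.70, Spearman rho = -0.71, permutation p = 0.00056, adjusted p = 0.0280, n = 20). Without the 2 libraries farthest from the median r was -0.51, and within timepoints it was -0.49. No relation passed in the 5 of 20 fits without WT ZT9 replicate 2, 4 or 5 or WT ZT15 replicate 1 or 3. In KO and PBS it was -0.39 and -0.31, while rho was 0.13 and -0.22. Of 50 relations each, 6 passed by r in KO and 5 in PBS. By rho, 2 of these 6 and 2 of these 5 also had an adjusted p under 0.05. In PBS, 3 members rose with T cell markers: *Itgb7* (r = 0.89, rho = 0.85, permutation p = 0.000190, adjusted p = 0.0095), *Itgal* (r = 0.82, rho = 0.73, permutation p = 0.00142, adjusted p = 0.0237) and *Itgae* (r = 0.75, rho = 0.59, permutation p = 0.00356, adjusted p = 0.0444), each over 12 libraries. Their r within timepoints was 0.86, 0.78 and 0.85, and r without the 2 farthest libraries was 0.79, 0.61 and 0.44.

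In KO, *Itgb2* rose with type 2 DC markers (r = 0.89, rho = 0.82, permutation p = 3e-05, adjusted p = 0.0015, n = 12), as did *Itgax* (r = 0.79, rho = 0.76) and *Itgam* (r = 0.73, rho = 0.66). *Itgb2* also rose with type 1 DC markers (r = 0.75, rho = 0.71) and ran against migratory DC markers (r = -0.83, rho = -0.83), as did *Itgav* (r = -0.80, rho = -0.76). Without KO ZT15 replicate 2 these 6 values of r were 0.87, 0.70, 0.56, 0.69, -0.75 and -0.71 in the same order. In PBS, *Icam1* rose with migratory DC markers (r = 0.84, rho = 0.90, permutation p = 0.00057, adjusted p = 0.0142, n = 12), at 0.85 within timepoints, and *Itgb7* ran against them (r = -0.75, rho = -0.54, permutation p = 0.00444, adjusted p = 0.0444). The macrophage and monocyte list was added after its level had been seen. Over 20 WT libraries 4 of 10 relations passed, those with *Itgb7* (r = 0.73, rho = 0.74, permutation p = 0.00027, adjusted p = 0.0027 over 10 relations), *Itgb2* (r = 0.61), *Itgal* (r = 0.57) and, inversely, *Itga4* (r = -0.59), the last 3 at adjusted p = 0.0198, 0.0234 and 0.0198. Within timepoints these became 0.06, 0.01, -0.08 and -0.03, so in WT the relations were seen between timepoints. Their absence among mice of 1 timepoint was not tested. In KO, 4 of 10 passed by r. *Itgam* and *Itgb2* each had r = 0.91 with this list (adjusted p = 0.00205 by permutation), with 0.76 and 0.87 within timepoints, and the others were *Itgav* (r = 0.76, permutation adjusted p = 0.0115) and *Itgax* (r = 0.66, permutation adjusted p = 0.0442). By rho only *Itgb2* passed (rho = 0.87, permutation adjusted p = 0.0067). *Itgam*, *Itgav* and *Itgax* did not (rho = 0.64, 0.60 and 0.55, permutation adjusted p = 0.108, 0.108 and 0.139). Without the 2 libraries farthest from the median r was 0.63 for *Itgam* and 0.90 for *Itgb2*, and without KO ZT15 replicate 2 alone it was 0.77, 0.77, 0.64 and 0.44 for these 4 members. In PBS, 0 of 10 passed (lowest adjusted p = 0.589 by permutation).

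Other genes of the integrin system were taken as 4 lists, fixed with the members and not used to choose them. Their counts are to be read against the shares of all genes called, which were 24.6% lower and 13.3% higher for WT against PBS, 23.5% higher and 10.2% lower for KO against WT and 9.73% for KO against PBS. With 11 to 28 genes a list, none of the counts below is called a difference from those shares. Of 11 further integrin subunits tested, 3 were higher and 2 lower in WT than PBS (13.3% and 24.6% of all genes). *Itga6* (log2 difference 0.69), *Itga5* (0.50) and *Itgb5* (0.61), α and β chains of receptors for laminin, fibronectin and vitronectin, were higher. *Itgb3* (-0.83) and *Itgad* (-0.70), a further partner of β2, were lower. The median over this list was 0.07, against -0.04 over all genes tested. In KO against WT, *Itga6* (-0.81) and *Itga1* (-0.44) were lower and *Itga3* (0.61) was higher, and in KO against PBS *Itga5* (0.73) and *Itgb5* (0.76) were higher.

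Of 28 genes that activate integrins or link them to actin, 9 were lower and 1 was higher in WT than PBS (24.6% and 13.3% of all genes). The 3 with the smallest p were the GTPase gene *Rap1a* (-0.42), the adaptor *Skap1* (-0.92) and *Fermt3* (-0.50), which encodes kindlin-3, a protein that β2 integrins need for activation. In KO against WT, 11 were higher and 3 lower (23.5% and 10.2% of all genes), led by *Ptk2b* (-0.31), *Skap2* (0.22) and again *Fermt3* (0.29). Their medians were -0.02 and 0.10, against -0.04 and 0.10 over all genes. In KO against PBS, *Fyb* (-0.32) and *Skap1* (-0.60) were lower. Over the day in WT, the F test called *Fyb*, *Skap1* and *Fgr*, 3 of 28 against 5.28% of all genes.

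Of 17 ligands and other adhesion genes, 6 were lower and 1 was higher in WT than PBS (24.6% and 13.3% of all genes). The 3 with the smallest p were *Cd48* (-0.48), *Cadm1* (-0.57) and *Selplg* (0.25), which encodes the P-selectin ligand PSGL-1. In KO against WT, 5 were higher and 3 lower (23.5% and 10.2% of all genes), with *Epcam* (0.67), *Cadm1* (0.52) and *Selplg* (-0.25) first. *Epcam*, which is also on the Langerhans cell list, was the one called in KO against PBS (0.45). Of 12 genes of TGF-β activation, 4 were lower in WT than PBS, where 24.6% of all genes were: *Tgfb1* (-0.75), *Nrros* (-0.45), which holds latent TGF-β1 on myeloid cells, *Tgfbr2* (-0.48) and *Tgfb2* (-0.61). *Lrrc32*, the gene for GARP, was higher (1.13). In KO against WT, *Nrros* (0.52) and *Tgfb1* (0.40) were higher and *Lrrc32* (-1.26) and *Aldh1a2* (-0.46) were lower. *Tgfb1* alone was called in KO against PBS (-0.34).

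The 2 genes whose log2 level followed a member most closely over the 20 WT libraries were named for 9 members with no test, since they are the best of all other genes tested. Libraries of a group share timepoints, and r over 12 or 20 libraries is imprecise. For *Icam1* they were *Stat6* (r = 0.91 in WT, 0.75 in KO and 0.95 in PBS) and *Map3k11* (0.90, 0.64 and 0.45). For *Itgal* they were *Rasal3* (0.87, 0.82 and 0.73) and *Fkbp4* (0.86, 0.77 and 0.42), and for *Itgb7* *Il2rb*, a chain of the interleukin-2 receptor (0.87, 0.79 and 0.78), and *Ctsd* (0.81, 0.49 and 0.66). *Itga4* was followed by *Pik3r5* (0.92 in WT, 0.20 in KO and 0.68 in PBS) and *Dock10* (0.91, 0.09 and 0.55). *Itgae* had *Nup62* (0.87 in WT, -0.41 in KO and -0.66 in PBS) and *Ubtf* (0.82, -0.05 and -0.14). For the others of these 9 the best r in WT was 0.68 with *Gspt1* for *Itgam*, 0.89 with *Sema4d* for *Itgb2*, 0.87 with *Dcaf7* for *Itgav* and 0.82 with *Matr3* for *Itgb8*. The second gene was *Myo15*, *Ywhag*, *Adam17* and *Pcif1* in the same order.

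**Figure D5:**
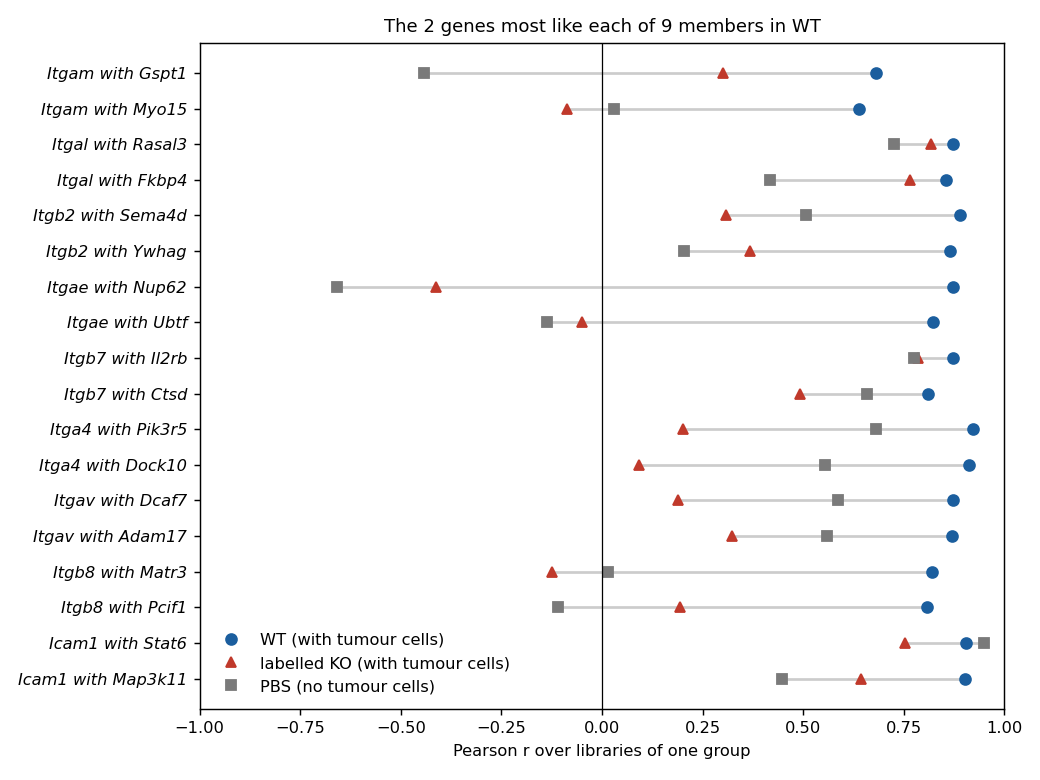
Pearson r of each of 9 members with the 2 genes most like it in WT, over 20 WT libraries (circles), 12 libraries labelled KO (triangles) and 12 PBS libraries (squares). Both pairs of *Itgal*, *Itgb7*, *Icam1*, *Itgb2*, *Itga4* and *Itgav* have r above 0 in every group, while those of *Itgae* are below 0 in KO and PBS.

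Among the members themselves, *Itgal* and *Itgb7* varied together in every group, with r = 0.72 in WT, 0.80 in KO and 0.88 in PBS. *Itgal* and its partner *Itgb2* had r = 0.75, 0.34 and 0.73. *Itgae* and its partner *Itgb7* had r = 0.11 in WT, 0.46 in KO and 0.76 in PBS, and *Itgae* and *Icam1* 0.75, -0.27 and -0.69.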

How the data were processed

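Per the methods, the authors used STAR to map single reads of 50 bases (mm10) and HTSeq 0.9.1 to count them per gene, then scaled them by library size, and deposited 1 table of CPM for 14699 genes and 44 libraries, each from 1 mouse by the methods. The kit does not mark strand, so reads of overlapping genes on opposite strands cannot be told apart. From 87.4% to 89.3% of values above 0 were whole multiples of the value of 1 read (tolerance 0.01), too few for a count test. No 2 libraries were identical, and p-values measure the spread between mice. Experiment or batch per mouse is not given in the sources used here.

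The 11963 genes that reached 1 CPM in 5 or more libraries (2736 did not) were fitted in limma 3.58.1 (R 4.3.3) on log2(CPM + 0.5), with Benjamini-Hochberg adjustment over all of them. Folds on this scale understate changes of low genes. Timepoints were tested by F test, 24-h cosinor and contrasts in each group alone, and groups in fits of cell means. The fits were tested on simulated data. Correlations and the ratio used permutation with 100000 resamples, or all 369600 arrangements for the ratio over 12 libraries, in Python 3.11.15 (numpy 2.4.6, pandas 2.3.3). Exon lengths come from GENCODE (GRCm38), positions and promoters from RefSeq (GRCm38.p6). *Itgax* and *Itga4* had fractions of a read in 23 and 43 of 44 libraries.

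Members, marker lists and pathway lists were chosen with earlier results of these data known. Named were the 10 members, *Arntl*, for each member the 2 genes with the highest r in WT (those of *Itgax* are not reported here) and, of each pathway list, all genes called where 5 or fewer were, otherwise the 3 with the smallest p. Alternatives were pseudocounts of 1 and 0.1, median-of-ratios scaling, no filter, array weights, a replicate block and leaving out each library. The alternation contrast, the macrophage list and the KO relations and ratio without KO ZT15 replicate 2 were added after seeing the data, and the contrast in WT is a description only.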

Additional observations from a re-analysis of the deposited data

Results flagged for a closer look

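Of 40 groups of 5 WT libraries (10 members at 4 timepoints) of which chance alone would mark about 1 in 20, 2 held a library far from the rest. *Itgam* in WT ZT21 replicate 4 was 7.73 CPM, while the other 4 libraries lay between 1.56 and 2.90 CPM. *Itga4* in WT ZT21 replicate 1 was 168 CPM, while the others lay between 120 and 131 CPM. Without the first, the WT minus PBS difference of *Itgam* was -1.55 (adjusted p = 1.04e-05), and without the second that of *Itga4* was 0.29 (adjusted p = 0.00187), both still called in limma. Groups of 3 were not examined in this way, which leaves out the KO ZT15 library with 105 CPM of *Itgam*. Causes were not tested.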

How the results depend on the processing

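The calls of *Itgae*, *Itgal*, *Itgam*, *Itgb7* and *Itgb2* in WT against PBS and KO against WT, of *Itga4* in WT against PBS and of *Itgb7* over time in WT kept direction and side of the threshold under every alternative run. Of single-member values under other settings, 743 did so, 10 lost and 7 gained a call, and 2 changed sign. Gains in the time F test in WT were *Itgal* with median-of-ratios scaling (adjusted p = 0.0296) and *Itgal* and *Itga4* with array weights (0.0269 and 0.00802). Array weights also gained *Itgb8* in KO minus WT (0.60), *Itgal* (-0.52) and *Itgae* (-0.71) in KO minus PBS and *Itga4* for ZT9 minus ZT21 in WT (0.45). The cause of changes was not tested.

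With array weights, genes called numbered 2462 (4 members) in the time F test in WT, 22 in KO, 147 in the cosinor in WT (2680 genes and 2 members unadjusted), 473 (1 member) for ZT9 minus ZT21 in WT, 70 in KO, 2494 (4 members) for KO minus PBS and 1071 for the KO minus WT interaction. Median-of-ratios scaling gave 1 member unadjusted in the WT cosinor, 0 members for KO minus PBS, 1 gene for the WT minus PBS interaction and 5 relations to marker lists. It moved the share of higher calls from 55.8% to 39.3% for KO minus PBS, and the median of all genes for ZT9 minus ZT21 in KO from -0.12 to -0.00118. Without the filter, 2 genes were called over time in PBS, 2 for ZT9 minus ZT21 in KO, 1 member for KO minus PBS, 5 genes for the WT minus PBS interaction and 2 for the alternation in PBS. A pseudocount of 1 gave 1 gene in the KO cosinor, 12 in the KO minus WT interaction and 3 relations, and one of 0.1 gave 2 for ZT9 minus ZT21 in KO and 11 in that interaction.

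Replicate numbers did not pair the samples, since deviations of same-numbered libraries had a mean r of 0.00224 across groups and -0.0147 within them. With a replicate block, 341 genes and 1 member were called over time in WT, 1 gene in the WT cosinor, 15 and 0 for ZT9 minus ZT21 in WT and KO, and 0 members for KO minus PBS. The block also lost the calls of *Itgb2* over time in WT (adjusted p = 0.0951), of *Itgax* in WT minus PBS (-0.34, adjusted p = 0.0660) and of *Itga4* in KO minus WT (-0.19, adjusted p = 0.0879). Those lost in KO minus PBS were *Itgb8* (0.71, adjusted p = 0.0521 in limma) and *Icam1* (0.31, adjusted p = 0.0564).

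*Itgav* changed sign in KO minus WT with the block (0.0187) and in KO minus PBS with array weights (-0.00109). Leaving out 1 library at a time, *Itgav* in KO minus WT ran from -0.0963 to 0.00429. The WT alternation of *Itgae*, a value with no test, was 0.02 with median-of-ratios scaling and 0.06 with array weights.

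Without 1 library, genes called ran from 278 to 1313 over time in WT (1 to 3 members), 0 to 7 in KO and 0 to 1 in PBS. In the cosinor they ran from 1 to 43 in WT (880 to 2340 genes and 0 to 2 members unadjusted), 0 to 2 in KO (1 to 2 members unadjusted) and 0 to 1 in PBS. For ZT9 minus ZT21 they ran from 3 to 67 in WT and 0 to 3 in KO, for KO minus PBS from 731 to 1813 (0 to 3 members), for the interactions from 0 to 38 (WT minus PBS) and 4 to 311 (KO minus WT), and for the alternation from 0 to 4 in KO and 0 to 1 in PBS. Relations to marker lists ran from 0 to 5. WT ZT3 replicate 3, where 13.4% of genes lay over 1 log2 unit apart, gave 1313, 43, 2340, 67 and 311. In WT, *Itgam*, with as few as 25 reads in a library, is the member that depth limits most. In KO and PBS, *Itgb8* had the lowest mean level of the members (14.2 and 8.52 CPM).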
